A study of Mus musculus with 48 samples.

Results

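The ADAMTS and ADAM proteases described here are 10 genes, chosen by name from the 24973 genes of the deposited table: *Adamts1*, *Adamts2*, *Adamts4*, *Adamts5*, *Adamts9*, *Adamts10*, *Adam8*, *Adam10*, *Adam12* and *Adam17*. All 10 were found in the table, and they were chosen with earlier results of these data known. Their RNA was measured in 4 cell types of the neurovascular unit, namely endothelial cells, pericytes, astrocytes and microglia, sorted from the ipsilateral (ischemic) and contralateral hemispheres of adult wild-type male C57BL/6 mice after transient middle cerebral artery occlusion (tMCAO), with 1 h of occlusion and 23 h of reperfusion. There were 48 libraries, 6 for each cell type and hemisphere, each from a pool of 3 to 4 mice, and both hemispheres of a replicate number came from the same mice. The contralateral hemisphere of the operated mice served as control, so every group comes from operated mice, and no sham-operated mice were analysed here.

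ADAMTS proteases are secreted zinc enzymes that bind the extracellular matrix through thrombospondin repeats and cut large proteoglycans and collagen precursors. ADAM proteases are mostly anchored in the cell membrane, where those with an active zinc site release the outer parts of membrane proteins such as cytokines, growth factor precursors, Notch receptors and adhesion molecules, a step called shedding. In the brain, aggrecanases of the ADAMTS family cut the lecticans versican, brevican and neurocan, which build the perineuronal and perivascular matrix, and TIMP proteins inhibit members of both families.

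The stretch of coding sequence shown for each member encodes the zinc-binding site, in which 3 histidines hold the zinc ion and a glutamate takes part in cutting, because this is the part that makes these proteins proteases. A site of 11 codons was found in 10 of 10 members in the longest coding transcript of GENCODE M21 (GRCm38). The capitals mark the codons for the 3 histidines, the glutamate that takes part in cutting and the residue at the eighth place of the site. That residue was asparagine in 3 members and glycine in 7. The first 3 lines are the members with asparagine, the next 3 the other ADAMTS genes and the last 4 the ADAM genes.
Adamts1: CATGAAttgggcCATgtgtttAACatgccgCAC
Adamts4: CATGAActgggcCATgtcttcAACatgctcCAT
Adamts9: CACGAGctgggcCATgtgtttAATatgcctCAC
Adamts5: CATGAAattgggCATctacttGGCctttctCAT
Adamts2: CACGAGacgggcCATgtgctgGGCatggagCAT
Adamts10: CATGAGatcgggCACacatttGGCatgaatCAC
Adam8: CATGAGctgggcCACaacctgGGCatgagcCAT
Adam12: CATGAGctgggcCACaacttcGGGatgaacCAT
Adam10: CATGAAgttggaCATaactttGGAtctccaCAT
Adam17: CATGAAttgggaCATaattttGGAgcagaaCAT
*Adamts1* and *Adamts9* had the same 11 encoded residues and shared 28 of 33 bases, and *Adamts1* and *Adamts4* shared 10 residues and 27 bases. *Adam8* and *Adam12* shared 9 residues and 29 bases, and the sheddases *Adam10* and *Adam17* shared 8 residues and 26 bases. The sites lie in exons, at chr16:85799191-85799545 for *Adamts1*, chr1:171253210-171253915 for *Adamts4* and chr6:92905285-92908493 for *Adamts9*, each across a boundary of 2 exons, and at chr7:139987893-139987925 within exon 11 for *Adam8*.

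The values are read counts per gene that the authors scaled by library size factors and rounded to whole numbers, called normalized counts here. They summed to between 10549900 and 16942165 per library. The spacing of low values puts 1 read at 0.66 to 2.37 normalized counts and the depth at 4900000 to 17100000 reads on genes, with a median of 11800000, so that 3 reads, taken as the floor for a value of 0, were worth 2.0 to 7.1 normalized counts. The titles of 12 ipsilateral libraries name pericytes where the table's columns name microglia, or the reverse, and the columns were followed. By the columns, each of 16 markers was higher in every library of its own cell type than in any other library of that hemisphere. Results in pericytes and microglia rest on this assignment, as do hemisphere differences set against theirs and shares of the ipsilateral microglial level. Hemisphere differences within endothelial cells and within astrocytes do not. RNA of 4 microglial markers (*Aif1*, *Tmem119*, *Cd68*, *Csf1r*) was present in the other cell types, at a higher share of the microglial level in replicates 1 to 4 than in replicates 5 and 6 of each group, and RNA of 5 oligodendrocyte markers was high in astrocyte libraries, which is given beside the members concerned. In bulk RNA, fewer cells of a type and less RNA per cell cannot be told apart.

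In the contralateral hemisphere the members divided among the cell types. *Adamts1*, *Adamts4*, *Adamts10*, *Adam10* and *Adam17* were above 0 in every contralateral library of all 4 cell types, though *Adamts4* was low in microglia (median 27 normalized counts). *Adamts2* and *Adamts5* were found mainly in pericytes, and *Adamts9* mainly in endothelial cells. *Adam8* and *Adam17* were highest in microglia, and *Adam10* in microglia and endothelial cells, which were not called to differ. Levels were compared by limma on log2(normalized count + 1) in a fit of all 48 libraries, in 6 pairs of cell types. A call needed a p of 0.05 or less after Benjamini-Hochberg adjustment over all genes tested and a difference of at least 1.5-fold. No lowest count per library was needed. *Adam12* was thus called between pericytes and both endothelial cells and microglia, though 2 contralateral pericyte libraries were at 0. Of the 10 members, 6 were called between endothelial cells and pericytes (34.6% of all genes tested), 6 between endothelial cells and astrocytes (49.1%), 5 between endothelial cells and microglia (41.6%), 4 between pericytes and astrocytes (45.4%), 10 between pericytes and microglia (48%) and 8 between astrocytes and microglia (50.7%). The plot of the members by library shows every value.

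**Figure D1:**
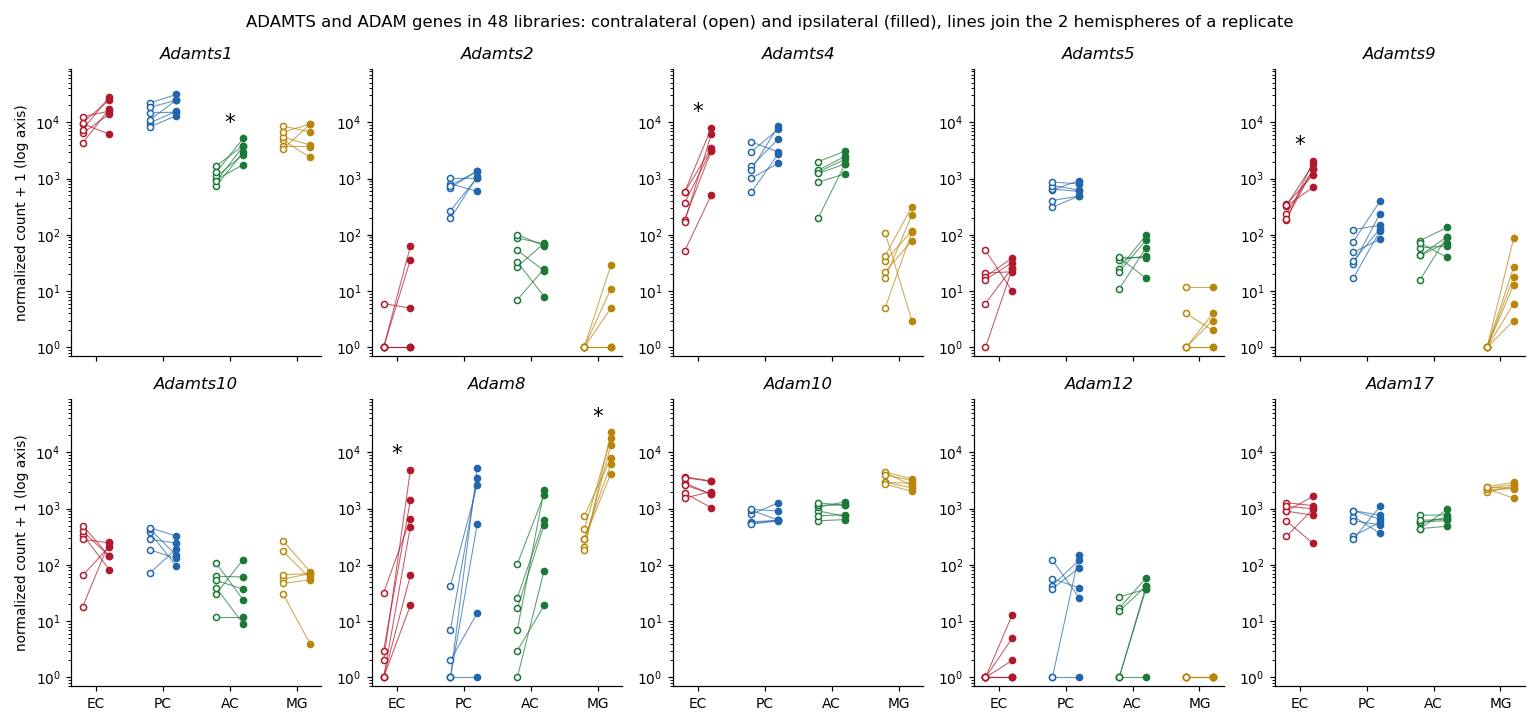
Normalized counts + 1 (log axis) of the 10 members in microglia (MG), astrocytes (AC), endothelial cells (EC) and pericytes (PC), with open points for contralateral and filled points for ipsilateral libraries, a line for each replicate and an asterisk where a hemisphere difference was called. *Adamts9* in EC, *Adamts1* in AC and *Adam8* in MG are the called members whose ipsilateral and contralateral libraries did not overlap, and *Adam12* was at 0 in all 12 MG libraries.

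*Adamts1*, a protease that cuts versican and aggrecan (chr16:85793827-85803113, minus strand), had the highest level per length of the members in contralateral endothelial cells, pericytes and microglia. Its mean per kb of exon was 2636 normalized counts in pericytes, 1568 in endothelial cells, 1028 in microglia and 210 in astrocytes, and it was the highest member per kb in 6 of 6 libraries of contralateral endothelial cells and pericytes, 4 of 6 of microglia and 3 of 6 of astrocytes. Not per length, contralateral libraries held 8175, 12782 and 21944 normalized counts (lowest, median and highest) in pericytes, 4276, 8410 and 12573 in endothelial cells, 3402, 5128 and 8578 in microglia and 748, 1026 and 1679 in astrocytes. Astrocytes lay below the other 3 cell types without overlap, and the neighbours above them overlapped. Pericytes and endothelial cells differed by 0.74 ± 0.33 (SE) on the log2 scale (adjusted p = 0.0778), a difference that was called with the replicate number as a block (adjusted p = 0.0383), and endothelial cells and microglia by 0.60 ± 0.33 (adjusted p = 0.148).

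*Adamts4*, an aggrecanase that cuts brevican and other lecticans and is known from cells of the oligodendrocyte lineage (chr1:171250421-171260637, plus strand), held 569, 1548 and 4475 normalized counts in contralateral pericytes and 199, 1274 and 1995 in astrocytes. Endothelial cells held 50, 274.5 and 569, and microglia 4, 27 and 108. The order was pericytes, astrocytes, endothelial cells and microglia, in which pericytes and astrocytes did not differ beyond their spread (0.76 on the log2 scale, 95% confidence interval -0.77 to 2.29). Endothelial cells lay 2.01 ± 0.76 (SE) below astrocytes (adjusted p = 0.0249) and 3.22 ± 0.76 above microglia (adjusted p = 0.000492).

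*Adamts5*, another aggrecanase (chr16:85858170-85901125, minus strand), and *Adamts2*, which removes the amino-terminal propeptide of fibrillar procollagens (chr11:50602084-50807573, plus strand), were genes of the pericyte libraries. *Adamts5* held 310, 641 and 868 normalized counts in contralateral pericytes against 10, 29.5 and 39 in astrocytes, 0, 16 and 52 in endothelial cells and 0, 0 and 11 in microglia. *Adamts2* held 194, 719 and 1002 in contralateral pericytes, 6, 42 and 100 in astrocytes, and 0 in 5 of 6 endothelial and 6 of 6 microglial libraries, where the floor was at most 3.5 normalized counts in microglia. No pericyte library overlapped another cell type for either gene. *Adamts5* was 4.43 ± 0.68 (SE) higher on the log2 scale in pericytes than in astrocytes (adjusted p = 4.8e-07), and *Adamts2* 3.81 ± 0.86 (adjusted p = 0.000272). Fibroblast marker RNA, summed over the 4 of 5 listed genes found in the table, was 441 to 3995 normalized counts in contralateral pericytes and at most 1042 in the other contralateral groups, and 4 smooth muscle markers summed to 305671 to 472420 in contralateral pericytes against at most 6161 elsewhere. No marker of these lists but *Col15a1*, at 0 in 2 libraries, was at 0 in a contralateral pericyte library, and the part of these cells in the levels of *Adamts2* and *Adamts5* was not tested.

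*Adamts9*, a protease of versican and aggrecan with a large carboxy-terminal domain (chr6:92772699-92943492, minus strand), held 186, 280 and 347 normalized counts in contralateral endothelial cells. Pericytes held 16, 40.5 and 123, astrocytes 15, 50 and 78, and all 6 microglial libraries were at 0. Endothelial cells lay above the other cell types without overlap, by 2.55 ± 0.53 (SE) on the log2 scale over pericytes (adjusted p = 0.000124) and 2.50 ± 0.53 over astrocytes (adjusted p = 9.8e-05), while pericytes and astrocytes differed by -0.05 (95% confidence interval -1.11 to 1.02). *Adamts10*, a fibrillin-associated protease (chr17:33524204-33553768, plus strand), held 70, 332.5 and 460 in pericytes, 17, 313 and 500 in endothelial cells, 29, 60.5 and 265 in microglia and 11, 45 and 105 in astrocytes. It was higher in pericytes than in microglia by 1.70 ± 0.72 (adjusted p = 0.0453) and than in astrocytes by 2.63 ± 0.72 (adjusted p = 0.00223), and pericytes and endothelial cells did not differ beyond their spread (-0.61, 95% confidence interval -2.06 to 0.83).

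Of the membrane-bound members, *Adam10* (chr9:70678997-70780229, plus strand) and *Adam17* (chr12:21323509-21373632, minus strand) are the main sheddases, known for cutting Notch receptors and cadherins and for releasing TNF and ligands of the epidermal growth factor receptor, respectively. *Adam10* held 2727, 3464 and 4469 normalized counts in contralateral microglia, 1538, 2753.5 and 3666 in endothelial cells, 607, 987 and 1258 in astrocytes and 530, 690 and 975 in pericytes. Microglia and endothelial cells formed a high pair that did not differ beyond its spread (0.45 on the log2 scale lower in endothelial cells, adjusted p = 0.147), as did the low pair of astrocytes and pericytes (adjusted p = 0.192). *Adam17* held 1933, 2260 and 2442 in microglia, above every library of the other cell types, whose medians were 899 in endothelial cells, 663.5 in pericytes and 565 in astrocytes. The microglial level exceeded that of endothelial cells by 1.53 ± 0.32 (SE) on the log2 scale (adjusted p = 0.000118), and the other 3 cell types did not differ from each other (adjusted p = 0.218 to 0.937).

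*Adam8*, a protease of leukocytes that is carried by microglia, neutrophils and macrophages (chr7:139978932-139992562, minus strand), held 182, 287.5 and 731 normalized counts in contralateral microglia. It was at 0, 0.5 and 31 in endothelial cells, 0, 0.5 and 41 in pericytes and 0, 11 and 103 in astrocytes, so that no microglial library overlapped another cell type. *Adam12*, a protease of muscle and mesenchymal cells (chr7:133883199-134225097, minus strand), had low values, with 0, 39.5 and 121 in contralateral pericytes and 0, 7 and 26 in astrocytes. It was listed at 0 in all 6 contralateral endothelial libraries, which allows up to 2.0 to 3.7 normalized counts per library by counting error alone, and in all 12 microglial libraries of both hemispheres.

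To see which members changed after stroke, ipsilateral and contralateral libraries of a cell type, 12 in all, were compared by limma on the same scale. This fit left out the replicate number, although it pairs hemispheres of the same mice. With the replicate number as a block, *Adam8* was also called in astrocytes (adjusted p = 0.00323). Genes averaging 10 or more normalized counts were tested. A call needed the same p and fold thresholds and also more than 10 normalized counts in all 6 libraries of at least 1 hemisphere. A total of 35 of the 40 combinations of member and cell type were tested: 8 members in endothelial cells (not *Adamts2* and *Adam12*), 10 in pericytes, 10 in astrocytes and 7 in microglia (not *Adamts2*, *Adamts5* and *Adam12*). The 3 members *Adamts4*, *Adamts9* and *Adam8* were higher in ipsilateral endothelial cells, where 0.362% of all genes tested were called higher and 0.128% lower. No member was called in pericytes, against 0.441% of genes higher and 0.581% lower, and *Adamts1* was higher in astrocytes, against 0.334% higher and 0.00655% lower. *Adam8* was higher in ipsilateral microglia, against 4.29% of genes higher and 6.27% lower. By limma, 0 members were called lower in the 4 cell types. At an unadjusted p under 0.05, 4 members were higher in endothelial cells, 4 in pericytes and 3 in astrocytes with 0 lower in each, and 2 were higher and 1, *Adam10*, lower in microglia. At that threshold, microglia had 10.6% of all genes tested higher and 17.4% lower, astrocytes 5.1% and 4.1%, pericytes 7.0% and 8.5%, endothelial cells 5.9% and 6.0%. The median log2 fold change of the members tested was 0.06 in microglia, 0.81 in astrocytes, 0.78 in pericytes and 1.06 in endothelial cells, beside -0.18, -0.06, -0.04 and -0.03 over all genes tested. The median of all genes in microglia was -0.12 after rescaling, and changes there are to be read against it. Because the members were chosen with earlier results of these data known, these shares and medians are background and no test of the family.

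**Figure D2:**
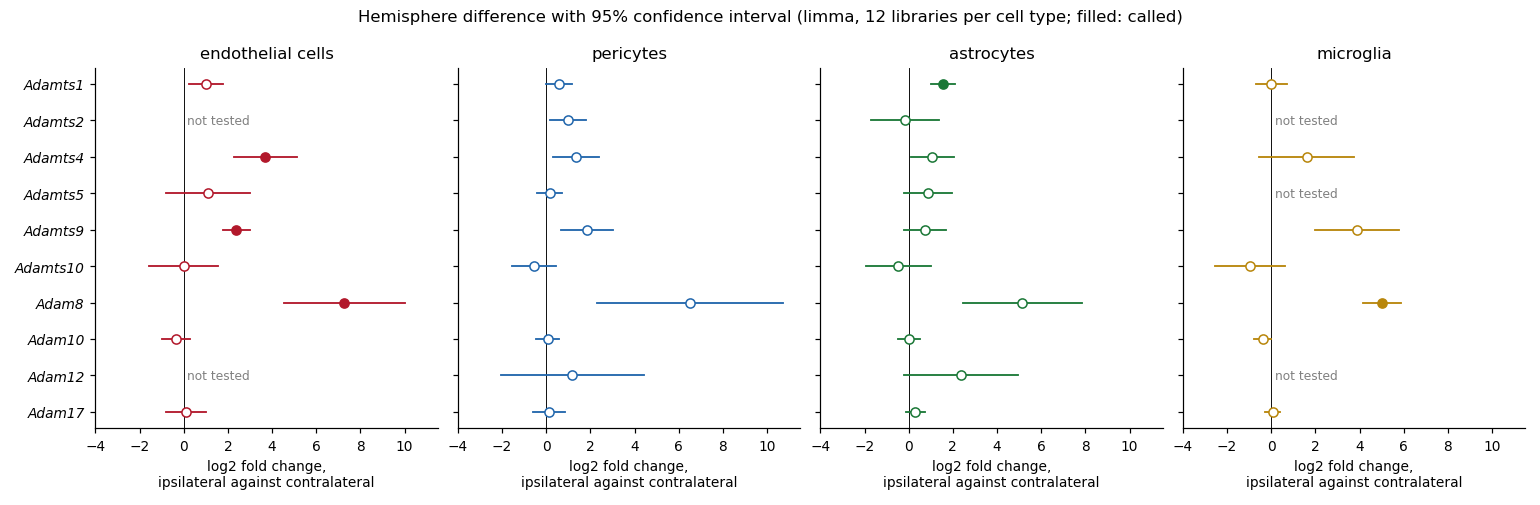
Log2 fold change of each member between ipsilateral and contralateral libraries (x axis, log2(normalized count + 1) scale) in the 4 cell types, with 95% confidence intervals and filled points for called members. The 5 filled points are *Adamts4* (3.69), *Adamts9* (2.38) and *Adam8* (7.27) in endothelial cells, *Adamts1* (1.56) in astrocytes and *Adam8* (5.02) in microglia.

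*Adamts4* rose in ipsilateral endothelial cells. Its libraries held 510, 3380.5 and 7839 normalized counts (lowest, median and highest) in the ipsilateral hemisphere against 50, 274.5 and 569 in the contralateral one, with means of 4063 ± 2571 (SD, n = 6) and 316.5 ± 218 (SD, n = 6). The ipsilateral library was higher in 6 of 6 replicates, and the groups overlapped through replicate 1, whose ipsilateral library held 510 while the other 5 held at least 3125. The log2 fold change was 3.69 ± 0.67 (SE, adjusted p = 0.0247), and with the replicate number as a block it was 3.69 ± 0.32 (adjusted p = 0.00323). Without replicate 1 the adjusted p was 0.00336, and it lay between 0.0639 and 0.124 without any other single replicate and at 0.224 in replicates 1 to 4 alone, where the log2 fold change was 3.30. In per kb terms *Adamts4* moved from 65.8 to 845 normalized counts per kb, the level next to that of *Adamts1* among the members in ipsilateral endothelial cells.

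In the other cell types *Adamts4* was not called. It held 1858, 4007 and 8430 normalized counts in ipsilateral pericytes against 569, 1548 and 4475 (log2 fold change 1.34 ± 0.49 SE, adjusted p = 0.204), and 1212, 2001.5 and 3074 in ipsilateral astrocytes against 199, 1274 and 1995 (1.07 ± 0.45, adjusted p = 0.498). The ipsilateral value was the higher in 5 of 6 replicates of pericytes and 6 of 6 of astrocytes, and the hemispheres overlapped in both. In microglia it held 2, 114.5 and 317 against 4, 27 and 108 (1.6 ± 1.00, adjusted p = 0.312), and it was called there without replicate 2, whose ipsilateral library held 2 (2.96, adjusted p = 0.00526). The hemisphere difference in endothelial cells exceeded that in pericytes by 2.36 ± 1.07 (SE, adjusted p = 0.573), that in astrocytes by 2.63 ± 1.07 (adjusted p = 0.777) and that in microglia by 2.09 ± 1.07 (adjusted p = 0.469), so a difference between the cell types was not called.

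Oligodendrocyte marker RNA (*Mbp*, *Mog*, *Mag*, *Mobp*, *Cldn11*) was set beside *Adamts4*. In contralateral astrocytes the 5 markers, none of them at 0, summed to 14704 to 132927 normalized counts, and *Adamts4* stood at 12.4 to 20.7 counts per 1000 counts of these markers. The library with the lowest marker sum, replicate 6, had the lowest *Adamts4* value (199), and that with the highest, replicate 4, had the highest (1995). In ipsilateral astrocytes the sum was 27155 to 164453 and *Adamts4* stood at 18.7 to 66.5 per 1000. There the library with the lowest sum, replicate 6, held 1807 of *Adamts4*, and the lowest *Adamts4* value, 1212, was in replicate 1 at a sum of 43162. Endothelial libraries held far less marker RNA and more *Adamts4* for it, with sums of 347 to 3843 and 415 to 6365 and *Adamts4* at 43.5 to 1282 per 1000 in the contralateral and 309 to 7839 in the ipsilateral hemisphere. Pericytes stood at 124 to 4976 and 518 to 22184 per 1000. Microglia stood at 4.27 to 47.1 per 1000 in the contralateral hemisphere, at sums of 870 to 4101, a range that spans that of contralateral astrocytes. Ipsilateral microglia stood at 0.656 to 340 per 1000, at sums of 933 to 3894. The part of oligodendrocyte RNA in the *Adamts4* level of astrocyte, microglial and other libraries was not tested.

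**Figure D3:**
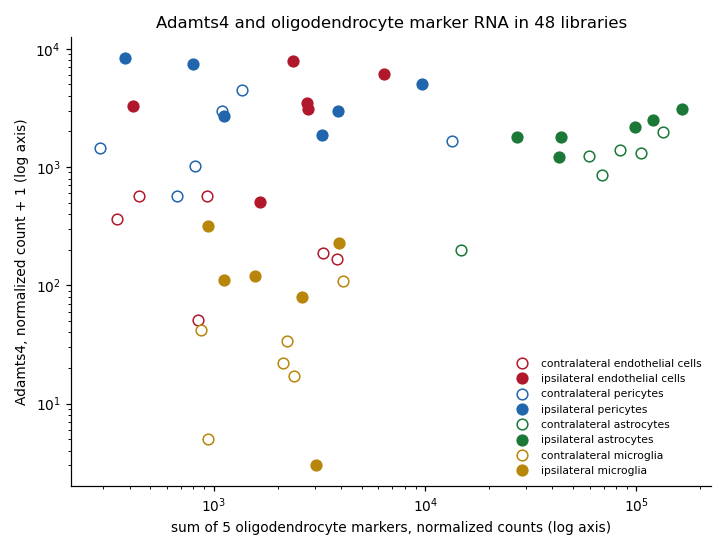
*Adamts4* (y axis, normalized count + 1, log axis) against the sum of 5 oligodendrocyte markers (x axis, normalized counts, log axis) in 48 libraries, with open points for contralateral and filled points for ipsilateral libraries. The 12 astrocyte libraries lie at the right, at marker sums of 14704 to 164453, where *Adamts4* was lowest (199) in the library with the lowest sum, and the ipsilateral endothelial libraries reach 7839 at sums of at most 6365.

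*Adamts9* rose in ipsilateral endothelial cells without overlap. The libraries held 703, 1454.5 and 2041 normalized counts against 186, 280 and 347, with means of 1434 ± 470 (SD, n = 6) and 269 ± 73.8 (SD, n = 6). All 6 replicates were higher on the ipsilateral side, and the lowest ipsilateral library, replicate 1, was above every contralateral one. The log2 fold change was 2.38 ± 0.28 (SE, adjusted p = 0.00255; with the block adjusted p = 0.0236). The call held without each single replicate (adjusted p = 0.00181 to 0.0286) and was lost in replicates 1 to 4 alone (2.23, adjusted p = 0.0769).

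Outside endothelial cells *Adamts9* had higher ipsilateral values in most replicates and was not called. Pericytes held 82, 137.5 and 396 normalized counts against 16, 40.5 and 123, higher in 6 of 6 replicates (1.85 ± 0.55 SE, adjusted p = 0.122), and astrocytes held 39, 81.5 and 134 against 15, 50 and 78, higher in 5 of 6 (0.74 ± 0.44, adjusted p = 0.653). In the fit of all 48 libraries the pericyte difference passed (adjusted p = 0.0471). Ipsilateral microglia held 2, 14.5 and 88 normalized counts, while all 6 contralateral microglial libraries were at 0. Against the floor of at most 3.5 normalized counts per library, the ipsilateral mean of 25 ± 32.0 (SD, n = 6) was at least 7.1-fold higher. Without replicate 2 the mean was 12.4 and the bound 3.52-fold, and the gene, averaging 6.2 over both hemispheres, was then not tested. The adjusted p was 0.0127, but the gene failed the rule of more than 10 normalized counts in all 6 libraries, with 2 in ipsilateral replicate 1 and 5 in replicate 5, and the highest value of 88 in replicate 2. The 4 endothelial markers summed to 243 to 2305 normalized counts in ipsilateral and 255 to 1217 in contralateral microglia. In ipsilateral endothelial cells they summed to 50747 to 80091. The part of endothelial RNA in the microglial *Adamts9* values was not tested.

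The hemisphere difference of *Adamts9* was the one in which cell types were called to differ. Calls of this kind needed the p and fold thresholds alone, with no lowest count per library. Over the 6 pairs of cell types, 0 members were called between endothelial cells and pericytes (0.0267% of all genes tested), endothelial cells and astrocytes (0.0600%), endothelial cells and microglia (0.273%), pericytes and astrocytes (0.00667%) and pericytes and microglia (0.727%), and 1 between astrocytes and microglia (0.293%). That was *Adamts9*, with a difference of -3.14 ± 0.75 (SE) on the log2 scale in astrocytes against microglia (adjusted p = 0.0472). It rests on microglial libraries at 0, where the fitted value depends on the pseudocount, and it ranged from -6.28 with a pseudocount of 0.1 to -0.81 with a pseudocount of 10 (adjusted p = 0.707). Without replicate 1 it was called (adjusted p = 0.0229), and without any other single replicate it was not (-2.69 to -3.32, adjusted p = 0.107 to 0.287).

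*Adamts1* rose in ipsilateral astrocytes. The libraries held 1758, 3316.5 and 5156 normalized counts against 748, 1026 and 1679, with means of 3346 ± 1171 (SD, n = 6) and 1114 ± 334 (SD, n = 6). The groups did not overlap, and the value was higher in 6 of 6 replicates. The log2 fold change was 1.56 ± 0.26 (SE, adjusted p = 0.0178; with the block adjusted p = 0.00233). It ranged from 1.46 to 1.70 when single replicates were left out, with adjusted p = 0.0543 without replicate 2, 0.141 without replicate 3, 0.085 without replicate 4 and 0.13 without replicate 5, and it was 1.33 in replicates 1 to 4 alone (adjusted p = 0.133). Marker RNA of other *Adamts1*-expressing cells in ipsilateral astrocytes was 122 to 1577 normalized counts for 4 endothelial and 744 to 3622 for 4 pericyte markers, against 157 to 1318 and 1538 to 6319 in contralateral astrocytes. The 4 microglial markers summed to 368 to 10617 in ipsilateral and 611 to 13973 in contralateral astrocytes, and rose between the hemispheres in replicates 3 and 4, from 1310 to 10115 and from 1918 to 3586. The part of these cells in the result was not tested.

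In the other cell types *Adamts1* was not called. Endothelial cells held 6131, 16582 and 28365 normalized counts against 4276, 8410 and 12573 (1.02 ± 0.36 SE, adjusted p = 0.246), higher in 5 of 6 replicates, and pericytes 13101, 20077 and 31154 against 8175, 12782 and 21944 (0.59 ± 0.28, adjusted p = 0.337), higher in 6 of 6. Microglia held 2376, 5324 and 9225 against 3402, 5128 and 8578, with a log2 fold change of 0.00 (95% confidence interval -0.71 to 0.72) and 2 of 6 replicates higher. The difference between astrocytes and microglia, 1.55 ± 0.47 (SE), was not called (adjusted p = 0.187).

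The remaining ADAMTS members were not called in any cell type in which they were tested. *Adamts2* held 593, 1065.5 and 1356 normalized counts in ipsilateral pericytes against 194, 719 and 1002, higher in 5 of 6 replicates (0.97 ± 0.39 SE, adjusted p = 0.246). *Adamts5* stayed close in pericytes, with 488, 605.5 and 916 against 310, 641 and 868 (0.15, 95% confidence interval -0.42 to 0.73). Beside these pericyte values, the 4 smooth muscle markers summed to 140102 to 323604 in ipsilateral and 305671 to 472420 in contralateral pericytes, and the fibroblast markers to 1347 to 5573 and 441 to 3995, and their part was not tested. *Adamts10* had log2 fold changes of -0.95 in microglia, -0.47 in astrocytes, -0.56 in pericytes and 0.00 in endothelial cells (adjusted p = 0.422 to 0.999).

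*Adam8* rose in ipsilateral microglia, where it had the highest mean level per length of the members. The libraries held 4194, 10881 and 22554 normalized counts against 182, 287.5 and 731, with means of 12134 ± 7220 (SD, n = 6) and 354 ± 203 (SD, n = 6). The groups did not overlap, and every replicate was higher on the ipsilateral side. The log2 fold change was 5.02 ± 0.41 (SE, adjusted p = 6.1e-06; with the block adjusted p = 0.000223), it ranged from 4.64 to 5.33 without single replicates, and it was 5.56 in replicates 1 to 4 alone. Per kb, the mean went from 76.3 to 2616 normalized counts, and *Adam8* was the highest member per kb in 5 of 6 ipsilateral microglial libraries, *Adamts1* in the other. Neutrophil markers (*S100a8*, *S100a9*, *Retnlg*, *Csf3r*, *Ly6g*, *Ngp*, *Mmp8*) summed to 4297 to 19169 normalized counts in ipsilateral and 6408 to 7971 in contralateral microglia, which were gated as CD45low and CD11b-positive cells. Most of the contralateral sum was *Csf3r*, whose median went from 6797 to 2400.5, while other markers of the list had higher ipsilateral medians, from 160 to 1241 for *S100a8*, 134.5 to 796.5 for *S100a9*, 44.5 to 358 for *Retnlg*, 29.5 to 110.5 for *Mmp8* and 5.5 to 63.5 for *Ngp*. *Ly6g* was at 0 in all 6 contralateral libraries and had an ipsilateral median of 2. The part of neutrophil RNA in the *Adam8* result was not tested.

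*Adam8* also had values above 0 outside microglia, and these set replicates 1 to 4 apart from replicates 5 and 6. Ipsilateral endothelial cells held 653, 1401, 4815, 475, 18 and 64 normalized counts in replicates 1 to 6, against 31, 2, 1, 0, 0 and 0. Ipsilateral pericytes held 528, 2650, 5286, 3437, 0 and 13, and ipsilateral astrocytes 519, 1771, 2121, 634, 18 and 78. Replicates 5 and 6 were low and replicates 1 to 4 high in all 3 ipsilateral groups, and all were sorted as CD45-negative cells. In endothelial cells the log2 fold change was 7.27 ± 1.28 (SE, adjusted p = 0.0211; with the block adjusted p = 0.0239), a size that depends on the pseudocount because 3 contralateral libraries were at 0. The adjusted p was 0.0541 without replicate 2, 0.127 without replicate 3, 0.104 without replicate 4 and 0.112 without replicate 6. In astrocytes the difference of 5.14 ± 1.26 was called with the block (adjusted p = 0.00323) and not without it (adjusted p = 0.149), and in pericytes the difference of 6.52 ± 1.96 was not called (adjusted p = 0.127, and 0.07 with the block). The block raised the calls over all genes tested from 52 to 242 in astrocytes and from 139 to 226 in pericytes. The pericyte value passed the p threshold in the joint fit of 48 libraries (adjusted p = 0.00878) but failed the rule on expression, with ipsilateral replicate 5 at 0. In replicates 1 to 4 alone *Adam8* was called in all 3, with log2 fold changes of 8.34, 9.08 and 5.47 in endothelial cells, pericytes and astrocytes (adjusted p = 0.0205, 0.0327 and 0.00833). These are the replicates with high ipsilateral *Adam8*, so these calls are not independent of the choice of libraries and give no separate support.

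In the ipsilateral libraries of these cell types, microglial marker RNA, like *Adam8*, was higher in replicates 1 to 4 than in replicates 5 and 6. In ipsilateral endothelial cells, the 4 microglial markers were at 2.73% to 23.1% of their sum in the microglia of the same mice in replicates 1 to 4, where *Adam8* was at 2.11% to 33.4% of its microglial value. In replicates 5 and 6 the markers were at 0.169% to 0.235% and *Adam8* at 0.288% to 0.798%. The corresponding shares in ipsilateral pericytes were 4.28% to 31.1% and 3.84% to 63.2% in replicates 1 to 4, and 0.164% to 0.206% and 0% to 0.162% in replicates 5 and 6. In ipsilateral astrocytes they were 1.8% to 11.3% and 2.81% to 42.2%, and 0.225% to 0.358% and 0.288% to 0.973%. The shares could differ within a library. In replicate 2, *Adam8* was above the markers in endothelial cells (33.4% against 10.4%), pericytes (63.2% against 16.3%) and astrocytes (42.2% against 11.3%). In replicate 4 it was below them (2.11% against 2.73%, 15.2% against 21.2% and 2.81% against 3.42%). In contralateral replicates 1 to 4 the markers were at 1.57% to 4.22% in endothelial cells, 0.259% to 4.91% in pericytes and 0.725% to 6.23% in astrocytes. *Adam8* was there at 0% to 14.7%, 0% to 14.4% and 1.41% to 36.3%. Neutrophil markers in ipsilateral endothelial cells summed to 2134 to 10155 normalized counts in replicates 1 to 4 and to 78 to 251 in replicates 5 and 6. The sums were 44 to 13115 and then 50 to 155 for pericytes, where replicate 1 was the library at 44, and for astrocytes 376 to 5432 against 223 to 387. None of the 4 microglial markers was at 0 in an ipsilateral endothelial or astrocyte library, whereas *Aif1* was at 0 in 2 and *Csf1r* in 1 of the ipsilateral pericyte libraries. The part of RNA from microglia or neutrophils in the *Adam8* values of these cell types was not tested.

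**Figure D4:**
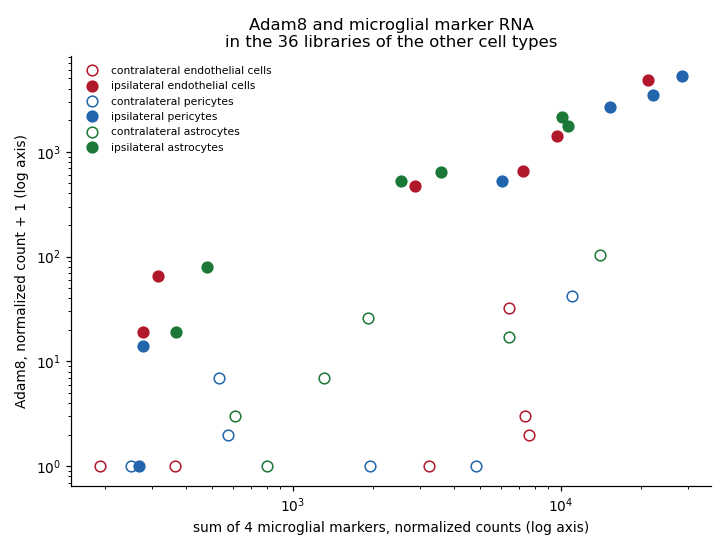
*Adam8* (y axis, normalized count + 1, log axis) against the sum of 4 microglial markers (x axis, normalized counts, log axis) in the 36 libraries of endothelial cells, pericytes and astrocytes, with open points for contralateral and filled points for ipsilateral libraries. Ipsilateral libraries run from low *Adam8* (0 to 78) at marker sums of at most 480 in replicates 5 and 6 to 5286 at a sum of 28388, and contralateral libraries reach 103.

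The sheddases *Adam10* and *Adam17* were not called in any cell type. *Adam10* held 2025, 2692.5 and 3367 normalized counts in ipsilateral microglia against 2727, 3464 and 4469, lower in 6 of 6 replicates (-0.39 ± 0.18 SE, adjusted p = 0.172), and 1037, 1914 and 3097 in ipsilateral endothelial cells against 1538, 2753.5 and 3666 (-0.36 ± 0.29, adjusted p = 0.687). Its log2 fold change was 0.07 (95% confidence interval -0.44 to 0.58) in pericytes and 0.00 (-0.50 to 0.50) in astrocytes. *Adam17* had log2 fold changes of 0.06 (95% confidence interval -0.29 to 0.41) in microglia, 0.10 (-0.82 to 1.03) in endothelial cells, 0.13 (-0.61 to 0.86) in pericytes and 0.30 (-0.12 to 0.72) in astrocytes. *Adam12* held 0, 38.5 and 57 normalized counts in ipsilateral astrocytes against 0, 7 and 26 (adjusted p = 0.586) and 0, 62.5 and 150 in ipsilateral pericytes against 0, 39.5 and 121 (adjusted p = 0.748).

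Related genes were counted in 8 lists. Of all genes tested, 4.29% were called higher and 6.27% lower in microglia, and 0.334% and 0.00655% in astrocytes. The shares were 0.441% and 0.581% in pericytes and 0.362% and 0.128% in endothelial cells. Of 12 further ADAMTS proteases in the table, 3 were tested in microglia, 6 in astrocytes, 5 in pericytes and 1 in endothelial cells, and 0 were called. Of 6 ADAMTS-like proteins, 1 was called, *Adamtsl1*, a secreted relative of the proteases without a protease domain, which fell in pericytes from 4251 ± 1423 to 1615 ± 478 normalized counts (SD, n = 6 each, log2 fold change -1.38, adjusted p = 0.0214). The summed smooth muscle markers had a median of 419293.5 in contralateral and 187734 in ipsilateral pericytes. The part of these cells in the *Adamtsl1* result was not tested. Of 7 further ADAM genes, *Adam9*, another sheddase, was called, with a log2 fold change of 0.67 in microglia (adjusted p = 0.0363).

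Among 16 genes of the lectican matrix, 2 of 8 tested were called in microglia, 2 of 13 in astrocytes, 2 of 10 in pericytes and 0 of 10 in endothelial cells (1 with the block), each higher in the ipsilateral hemisphere. The shares of all genes called higher were 4.29% in microglia, 0.334% in astrocytes, 0.441% in pericytes and 0.362% in endothelial cells. *Vcan*, which encodes the substrate versican, rose in microglia from 6.83 to 69 normalized counts on average (log2 fold change 3.89, adjusted p = 0.0175). *Tnc*, a matrix glycoprotein that binds lecticans, rose in pericytes (6.73, adjusted p = 0.00637) and astrocytes (3.56, adjusted p = 0.0178), and the hyaluronan receptor *Cd44* in pericytes (3.01, adjusted p = 0.0447), astrocytes (2.85, adjusted p = 0.0393) and microglia (4.02, adjusted p = 2.1e-05). In replicates 1 to 4, microglial markers were at 4.28% to 31.1% of the microglial level in ipsilateral pericytes and 1.8% to 11.3% in ipsilateral astrocytes. The part of microglial RNA in the *Cd44* values there was not tested.

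Among 7 inhibitors and clearance receptors, *Timp1* was called in astrocytes (3.08, adjusted p = 0.00805) and microglia (3.37, adjusted p = 0.011), and with the block also in endothelial cells (2.32, adjusted p = 0.0343) and pericytes (2.07, adjusted p = 0.0344). The other 6, among them *Timp2*, *Timp3*, *Timp4* and *Reck*, were not called, except *A2m* in astrocytes with the block (1.25, adjusted p = 0.0162). Of 13 partners of *Adam10* and *Adam17* in the table, *Tspan14*, a tetraspanin that binds ADAM10, fell in microglia (-0.59, adjusted p = 0.0335) and no other was called.

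Of 33 genes whose proteins are shed, 10 of 29 tested were called in microglia, 2 higher and 8 lower, 0 of 32 in astrocytes (5 with the block), 1 of 29 in pericytes (2 with the block) and 0 of 30 in endothelial cells. In microglia, 4.29% of all genes tested were called higher and 6.27% lower. The pericyte gene was the TNF receptor gene *Tnfrsf1a* (0.68, adjusted p = 0.0265), and the block added *Mertk*, lower in ipsilateral pericytes (-0.91, adjusted p = 0.0574 without and 0.0284 with the block). In microglia the Notch ligand gene *Jag1* rose (3.21, adjusted p = 0.00105), as did *App*, the precursor of amyloid beta (0.70, adjusted p = 0.00962), while the interleukin 6 receptor gene *Il6ra* (-1.70, adjusted p = 0.00261) and the phagocytic receptor gene *Mertk* (-0.97, adjusted p = 0.0105) fell. Of 13 other substrates, 2 of 9 tested were called in microglia, both higher, namely *Thbs1* (2.97, adjusted p = 2.9e-05) and *Fn1* (2.25, adjusted p = 0.00138). The block added *Nid1* there (2.88, adjusted p = 0.0755 without and 0.0346 with it). By limma, 0 of 12, 13 and 12 were called in endothelial cells, pericytes and astrocytes (1 each with the block).

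The genes whose log2 levels followed a member most closely over the 48 libraries are given as a description, since these libraries share cell types and depth. They were *Lilr4b* (r = 0.959) and *Cd72* (r = 0.942) for *Adam8*, *Gpc3* (0.943) and *Col6a1* (0.923) for *Adamts2*, *Fstl1* (0.925) and *Pgf* (0.923) for *Adamts5*, and *Cttnbp2nl* (0.933) and *Map3k1* (0.903) for *Adam10*. *Adamts1* went with *Myo1c* (0.907) and *Msn* (0.896), *Adamts9* with *Ece1* (0.880) and *Rara* (0.878), *Adam17* with *Spata13* (0.886) and *Mfsd1* (0.856), and *Adamts4* with *Ptprk* (0.842) and *Ptk2* (0.838). *Adam12* with *Col12a1* (0.787) and *Slit2* (0.774) and *Adamts10* with *Osbpl9* (0.786) and *Nfe2l1* (0.774) had the lowest values.

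Promoter sequences are shown for the 3 called members that the RefSeq table holds, *Adamts1*, *Adamts9* and *Adam8*, as the 250 bases before the start (GRCm38.p6), read 5′ to 3′ on the strand of the gene. The table holds 6 of the 10 members.
Adamts1, chr16:85803114-85803363, minus strand: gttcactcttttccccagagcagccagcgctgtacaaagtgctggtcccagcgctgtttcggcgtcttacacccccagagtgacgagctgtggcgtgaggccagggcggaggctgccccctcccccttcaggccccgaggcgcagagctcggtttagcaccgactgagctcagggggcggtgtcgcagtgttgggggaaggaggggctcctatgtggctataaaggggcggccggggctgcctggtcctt
Adamts9, chr6:92943535-92943784, minus strand: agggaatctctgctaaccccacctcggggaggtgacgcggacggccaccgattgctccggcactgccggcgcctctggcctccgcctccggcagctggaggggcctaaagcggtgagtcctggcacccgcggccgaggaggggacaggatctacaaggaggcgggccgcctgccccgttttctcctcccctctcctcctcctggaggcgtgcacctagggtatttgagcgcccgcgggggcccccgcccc
Adam8, chr7:139992563-139992812, minus strand: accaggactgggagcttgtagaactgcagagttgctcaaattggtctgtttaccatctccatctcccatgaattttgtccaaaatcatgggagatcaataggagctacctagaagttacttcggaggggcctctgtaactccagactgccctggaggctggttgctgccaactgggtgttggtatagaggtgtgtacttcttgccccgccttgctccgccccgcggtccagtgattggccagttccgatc
They were searched on both strands for TGANTCA (AP-1), ACGTG (the hypoxia response core), TTCNNNGAA (STAT) and GAGGAAG (PU.1), which occur in 6.7%, 16.6%, 7.0% and 10.6% of the 32851 promoters of the table over the same 250 bases. None of these letter strings was found in the 3 windows, and *Adam10* held 2 overlapping matches to ACGTG, 1 on each strand. The share of G and C was 52.8% for *Adam8*, 65.6% for *Adamts1* and 71.2% for *Adamts9*.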

How the data were processed

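RNA was measured in 48 libraries of 4 sorted cell types. RNA was amplified from about 250 pg with a full-length cDNA kit. Per the submitters' processing notes, reads were trimmed with Trimmomatic 0.38, aligned to GRCm38 with STAR 2.6.1d, counted on genes with featureCounts 1.6.3 and normalized with DESeq2 1.18.1. The values the authors deposited are these counts divided by size factors and rounded, treated here as a score and never as raw counts, so that no count model was run. Columns were mapped to samples by name.

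Tests were made here in R 4.3.3 with limma 3.58.1 (lmFit, eBayes with a trend, two-sided) on log2(normalized count + 1), which understates changes of low genes, keeping genes that averaged 10 or more. Each cell type was fitted alone without a block, and levels and differences between cell types in a fit of 48 libraries. The limma steps were tested on simulated data. Replicate numbers pair the hemispheres, since both come from the same pooled mice, and the mean correlation of deviations across genes was 0.23, 0.23, 0.38 and 0.14 within pairs (endothelial cells, pericytes, astrocytes, microglia) against -0.04, -0.04, -0.08 and -0.03 otherwise. The text names all members, up to 4 called genes per list and cell type with the smallest adjusted p, and the 2 genes most alike each member. From the lists, 2 genes are not reported here and enter no list count or marker sum. Members and lists were chosen with earlier results of these data known. Alternatives were pseudocounts of 0.1 and 10, no filter or a minimum mean of 50, the block, the joint fit, rescaling, replicates left out and replicates 1 to 4 alone. Gene coordinates are those of the deposited table, coding sites and exon lengths come from GENCODE M21 and promoters from RefSeq. Summaries and plots used Python 3.11.15, numpy 2.4.6, pandas 2.3.3 and matplotlib 3.10.9. Intervals and floors cover counting error or the spread between libraries.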

Additional observations from a re-analysis of the deposited data

Results flagged for a closer look

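In 70 groups of 6 libraries, a library was looked for whose distance to the nearest other as a share of the group's range exceeded Dixon's 95% critical value on the log2 scale, which chance gives in about 1 group in 20. There were 8 such groups. *Adamts4* was at 510 normalized counts in ipsilateral endothelial cells of replicate 1, against at least 3125 in the other 5, at 199 in contralateral astrocytes of replicate 6, against at least 861, and at 2 in ipsilateral microglia of replicate 2, against at least 78. In the same microglial library *Adamts10* was at 3, against at least 53. *Adamts2* was at 593 in ipsilateral pericytes of replicate 3, against at least 1012. *Adam12* was at 0 in ipsilateral pericytes of replicate 1, against at least 25, and at 0 in ipsilateral astrocytes of replicate 4, against at least 36. In replicate 1, contralateral endothelial cells held 31 of *Adam8*, against at most 2 in the other 5. The hemisphere difference of *Adamts9* differed between astrocytes and microglia by -3.14 on the log2 scale (adjusted p = 0.0472).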

How the results depend on the processing

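No member called in any setting changed its direction, and 24 changes of sign concerned hemisphere differences called in neither setting. Differences between cell types in the hemisphere difference were called in 1 combination of member and pair of cell types, in 3 with a pseudocount of 0.1, each of them *Adamts9* against microglia, and in 0 with a pseudocount of 10 and in replicates 1 to 4 alone, with 0 to 1 when single replicates were left out. Members higher in endothelial cells numbered 3, and 1 in replicates 1 to 4 alone (*Adam8*), with 1 to 3 without single replicates. In astrocytes the number was 1, or 2 with the replicate block, which added *Adam8*, and 0 to 1 without single replicates. In microglia it was 1, with 1 to 2 without single replicates, and in pericytes 0, but 1 in the joint fit of 48 libraries (*Adamts9*) and 1 in replicates 1 to 4 alone (*Adam8*). Outside microglia, replicates 1 to 4 are those with high ipsilateral *Adam8*, so its calls in them are no separate support. The 39 called level differences ranged from 35 to 40 over the alternatives, and the block added 1, *Adamts1* between endothelial cells and pericytes. The block changed no other call of a member. Values near the floor of 2.0 to 7.1 normalized counts limit *Adam12*, *Adamts2* outside pericytes and *Adamts9* in microglia. Where calls changed, the cause was not tested.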
